A study of Mus musculus with 50 samples.

Results

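Apoe and 8 other genes of lipoprotein handling were followed through microglia in which deletion of the histone deacetylase genes Hdac1 and Hdac2 was driven either constitutively or by tamoxifen given before birth. The 9 genes, chosen by name from the 48526 genes of the counts table, were the apolipoprotein genes Apoe, Apoc1, Apoc2, Apoc4 and Apob, the lipoprotein lipase gene Lpl, the sterol transporter genes Abca1 and Abcg1, and the lipoprotein receptor gene Lrp1. All 9 were found in the table, and 12 reads in 6 of 50 libraries were all that Apoc2 gave. The study sequenced RNA of microglia that had been sorted by flow cytometry from mouse brain, 1 library per animal, in 14 groups.

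Every mouse carried loxP-flanked Hdac1 and Hdac2, and no control mouse carried Cre, so an effect of the deletion and an effect of carrying Cre cannot be told apart in any of these comparisons. In the constitutive model the knockouts carried Cx3cr1-Cre, which is active in microglia and in other myeloid cells that use the Cx3cr1 gene, and neither they nor their controls were treated. Their libraries came from 3 knockout and 4 control animals at birth (P0), 2 knockout and 4 control animals at 2 weeks, and 3 knockout and 4 control animals at 6 weeks. In the inducible model the knockouts carried Cx3cr1-CreERT2, and knockouts and controls alike came from dams given 3 mg tamoxifen on embryonic day 13. Their libraries came from 3 knockout and 4 control animals on embryonic day 16 (E16), 4 knockout and 3 control animals at P0, 4 of each at 2 weeks and 4 of each at 6 weeks. The labels give no sign that animals were pooled, and a library is called here by its animal number where it needs a name.

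Apolipoproteins are the protein coats of lipoprotein particles. ApoE is the main one made inside the brain, where astrocytes are its chief source and microglia make more of it when they take up debris, while ApoB is best known from the particles that liver and intestine release. In macrophages the transporters ABCA1 and ABCG1 pass cholesterol out to apolipoproteins, LPL splits the triglycerides that particles carry, and LRP1 takes ApoE-bearing particles up; the sterol-sensing LXR receptors are known to switch on several of these genes together.

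Library totals ran from 11050277 to 29651179 counts. All 12 genes of a homeostatic microglia list were detected in every group, at a summed 22790 to 68836 CPM (counts scaled to a library total of 1000000) in constitutive controls and 18413 to 64463 CPM in inducible controls. Their sum was lower in every constitutive knockout than in every control of its age: it was 1209 to 4324 CPM for P0 knockouts, 17129 and 26407 CPM for the pair aged 2 weeks, and 37497 to 52014 CPM for those aged 6 weeks. In inducible knockouts it was below all controls on E16 (6939 to 18033 CPM) and at P0 (10368 to 14019 CPM), and the groups came close or overlapped later. The list includes Cx3cr1 itself, which had 329 to 735 CPM in E16 knockouts, against 2403 to 3567 CPM in controls. That gap is wider than the one between the highest E16 knockout sum and the lowest control sum. The E16 sums therefore show no separation in the other genes of the list. In these bulk libraries fewer cells of a type and less RNA per cell cannot be told apart. The targeted gene Hdac2 fell in 4 of the 7 knockout comparisons (constitutive 6 weeks, and inducible P0, 2 weeks and 6 weeks) and Hdac1 did not pass the test in any, with the whole gene counted whichever exons were deleted; Cx3cr1, whose sequences drive Cre, fell in 6 of the 7. Some libraries went against their labels or stood apart. Hdac1 had 35.7 CPM in constitutive P0 knockout 68 and 92.2 CPM in constitutive 6-week knockout 380, above all their controls. Hdac2 had 190.5 CPM in the same P0 knockout 68 and 137 CPM in P0 knockout 76, against 125.9 to 164 CPM in their controls. Each of the 7 genes called in constitutive P0 knockouts was still called without knockout 76. In E16 knockout 1 Hdac2 had 316 CPM, against 133 to 165 CPM in its controls. In constitutive 2-week knockout 89 Hdac2 had 70.1 CPM, inside the 59.8 to 71.3 CPM of its controls. Inducible 6-week knockout 6 had 13.5 CPM of Hdac1, inside the 12.8 to 18.9 CPM of its controls, with 8057 CPM of neutrophil markers and 536 CPM of monocyte markers, against 775 to 1121 CPM and 80.1 to 99.6 CPM in its controls.

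The counts were tested with edgeR's quasi-likelihood test, with p-values adjusted by Benjamini and Hochberg's method over all genes that passed a filter on low counts; a gene is said to rise or fall only where the adjusted p was below 0.05. Apoc2 never passed that filter. Of the 7 knockout comparisons Apoc4 passed it in the constitutive 2-week and 6-week ones only, through knockout libraries in which it was high, so its call there and its absence elsewhere are partly set by the filter. Apob passed it in the constitutive comparisons through the controls alone. In the constitutive 6-week comparison Apoc1 passed it through the knockouts alone. In constitutive knockouts at P0, 7 of the 7 genes that passed fell and none rose, where 41.6% of all genes tested changed, 20.2% of all genes downward; the count stayed at 7 without any 1 library. At 2 weeks 4 of 8 rose (Apoe, Apoc1, Apoc4 and Abcg1) and 2 fell (Apob and Lrp1), where 42.1% of all genes changed, 24.4% up and 17.8% down. At 6 weeks 3 of 8 rose (Apoe, Apoc1 and Apoc4) and 1 fell (Apob), where 12% of all genes changed, 6.76% up and 5.24% down. Changes were widespread in the constitutive model at P0 and 2 weeks, so a call alone does not set a gene apart there.

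In inducible knockouts the background was far lower. At E16 none of the 7 genes that passed was called, and neither was any other gene: 0% of the 17594 genes passed by edgeR, with 2306 at an unadjusted p below 0.05, while DESeq2 called 881 genes and limma voom 0. At P0 2 of 7 fell (Apoe and Abca1), where 10.4% of all genes changed, 3.56% downward. At 2 weeks 4 of 7 rose (Apoe, Apoc1, Apob and Lrp1) and none fell, where 2.25% of all genes changed, 1.11% upward. At 6 weeks none of 7 was called, where 0.0633% of all genes were, with 626 at an unadjusted p below 0.05, 44 called by DESeq2 and 6 by limma voom. The P0 and 2-week calls of this model rest on few libraries: without 1 library the number of genes called ranged from 1 to 2 at P0 and from 0 to 4 at 2 weeks.

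**Figure D1:**
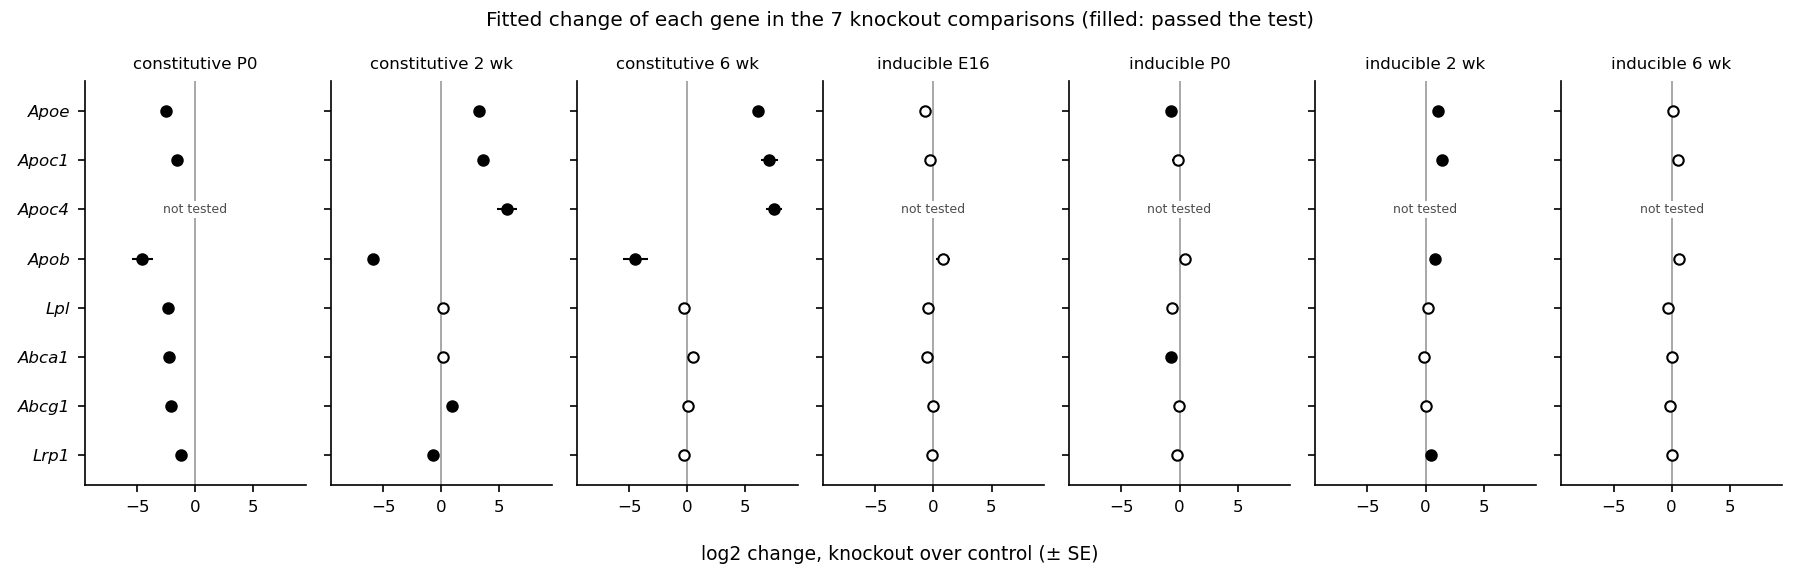
Fitted log2 change, knockout over control, of 8 genes (rows) in the 7 knockout comparisons (panels), with the standard error as a bar; filled points passed the edgeR test and open points did not. Apoe, Apoc1 and Apoc4 lie far to the right in constitutive knockouts at 2 and 6 weeks, Apob far to the left at all 3 constitutive ages, and most points of the inducible model lie near 0.

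Apoe (ENSMUSG00000002985.16, a protein-coding gene on the minus strand of GRCm38 at chr7:19696109-19699188) was lower in constitutive knockouts at P0 and higher in them at 2 and 6 weeks. At P0 the 3 constitutive knockouts had 2081, 1969 and 2004 CPM of Apoe, against 9886, 7727, 9809 and 8814 CPM in controls. The groups did not overlap, and the fitted change was -2.53 ± 0.19 (log2, SE; edgeR adjusted p = 1.86e-05), 5.78-fold lower. At 2 weeks the 2 knockouts had 15258 and 15146 CPM, against 1739.8, 1457, 1781 and 1299.9 CPM in controls. Here every knockout was far above every control, with a change of 3.27 ± 0.15 (edgeR adjusted p = 1.17e-06). At 6 weeks the 3 knockouts had 18032, 51015 and 20915 CPM, against 498, 562, 352 and 295 CPM in controls. The change was 6.09 ± 0.46 (edgeR adjusted p = 8.2e-05); the highest value belongs to knockout 380, in which Apoe alone took 5.1% of all counts, and without it the change was 5.47.

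The difference between the 2-week and the P0 effect of the constitutive knockout was itself tested. For Apoe it was 5.74 ± 0.25 on the log2 scale (edgeR adjusted p = 1.91e-09). In controls the gene ran the other way with age, with 9059 ± 1013 CPM at P0, 1569 ± 230.4 CPM at 2 weeks and 426 ± 124 CPM at 6 weeks (SD, n = 4 each). Means in the knockouts were 2018 ± 57.5 CPM at P0 (n = 3), 15202 ± 79.4 CPM at 2 weeks (n = 2) and 29988 ± 18267 CPM at 6 weeks (n = 3). The 2 courses cross between P0 and 2 weeks: the means were lower at each later age in controls and higher at each later age in knockouts, whose ages were not tested against each other.

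In the inducible model the fitted changes of Apoe were smaller, and they passed the test at P0 and 2 weeks only. The 2-week and 6-week effects were not tested against each other. On E16 the knockouts had 3363, 9167 and 7449.8 CPM, against 9661, 12110.3, 9811 and 10310.2 CPM in controls. All 3 lay below the controls, but the change of -0.73 ± 0.42 did not pass the test (edgeR adjusted p = 0.51); the lowest value is that of knockout 1, without which the change was -0.37 (adjusted p = 0.206). At P0 the knockouts had 5276, 5831, 7923 and 9116 CPM, against 11699, 11999.5 and 12329 CPM in controls. The groups were apart, and the change of -0.75 ± 0.22 passed narrowly (edgeR adjusted p = 0.0474); it no longer passed without any 1 of 6 of the 7 libraries, or with all 14 groups in the fit. At 2 weeks the knockouts had 3917, 4929.5, 3439 and 2837 CPM, against 1754, 1241, 2104 and 1857 CPM in controls. Every knockout was again above every control, by 1.05 ± 0.18 (edgeR adjusted p = 0.0184; 0.0537 without knockout 10, 0.0605 without control 1 and 0.12 with all 14 groups in the fit). At 6 weeks the knockouts had 529, 362, 1413 and 754 CPM, against 759.7, 738, 663 and 558 CPM in controls, and the groups overlapped. The highest value is that of knockout 6, the library with high neutrophil and monocyte markers, and the change of 0.14 ± 0.38 was -0.34 without it; neither passed. The part of these markers in the level was not tested. The change from the P0 to the 2-week effect of the inducible knockout, 1.86 ± 0.29, passed the test (edgeR adjusted p = 0.00131).

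**Figure D2:**
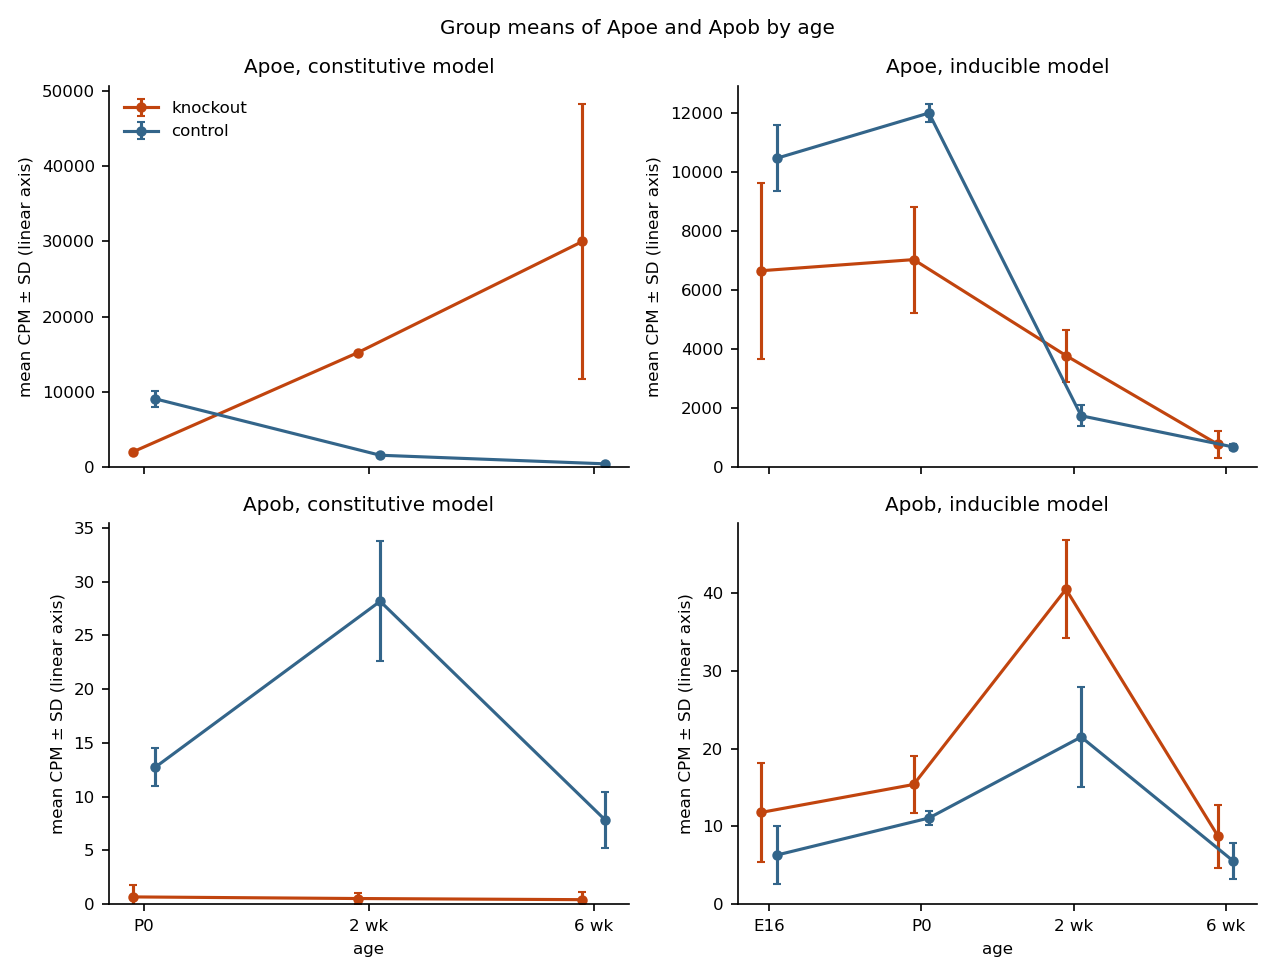
Group means of Apoe and Apob (CPM, linear axes that differ between panels) by age in the constitutive and the inducible model, with SD as bars, knockouts in orange and controls in blue. Apoe means of knockouts and controls cross after P0 in both models, and Apob stays near 0 in constitutive knockouts at all 3 ages.

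Both models had a control course of Apoe with high levels around birth and low levels at 6 weeks, and the knockout effects were set against each other at matched ages. The constitutive effect minus the inducible effect on Apoe was -1.74 ± 0.28 at P0 (edgeR adjusted p = 0.000534), 2.22 ± 0.27 at 2 weeks (edgeR adjusted p = 1.53e-05) and 5.96 ± 0.63 at 6 weeks (edgeR adjusted p = 8.31e-05). Over the 14 group means the order of Apoe began with the constitutive 6-week knockouts, then the constitutive 2-week knockouts, and ended with the constitutive 6-week controls. Neighbours in that order overlapped from the inducible P0 controls down to the inducible 2-week knockouts, and again from the constitutive P0 knockouts to the end. Per kilobase of the exon length given in the counts table, Apoe was the highest of the 9 genes in all 14 groups, from 199 CPM per kilobase in constitutive 6-week controls to 14026 CPM per kilobase in constitutive 6-week knockouts.

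Apoc1, Apoc4 and Apoc2 lie next to Apoe on the same strand of chromosome 7, and the sequences before 2 of these starts and before that of Apob are printed because Apoe and Apoc4 rose together while Apob fell. Each window holds the 250 bases upstream of a RefSeq start in GRCm38.p6, 5′ to 3′ on the strand of the gene: chr7:19699189-19699438 (minus strand) for Apoe, chr7:19681461-19681710 (minus strand) for Apoc4 and chr12:7977427-7977676 (plus strand) for Apob. Capitals mark exact matches, on either strand, to TATAAA (the TATA box), GAGGAA (the core bound by the macrophage factor PU.1) or AGGTCA (a nuclear receptor half-site).
Apoe: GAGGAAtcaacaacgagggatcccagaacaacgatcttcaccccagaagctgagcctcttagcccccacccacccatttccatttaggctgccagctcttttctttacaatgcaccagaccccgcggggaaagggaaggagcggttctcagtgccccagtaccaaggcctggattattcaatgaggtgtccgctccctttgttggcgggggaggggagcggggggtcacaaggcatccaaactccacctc
Apoc4: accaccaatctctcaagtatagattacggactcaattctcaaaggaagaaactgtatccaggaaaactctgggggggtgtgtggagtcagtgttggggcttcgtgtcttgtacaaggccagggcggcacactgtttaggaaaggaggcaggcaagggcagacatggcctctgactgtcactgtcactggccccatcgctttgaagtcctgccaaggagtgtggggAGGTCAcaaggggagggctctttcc
Apob: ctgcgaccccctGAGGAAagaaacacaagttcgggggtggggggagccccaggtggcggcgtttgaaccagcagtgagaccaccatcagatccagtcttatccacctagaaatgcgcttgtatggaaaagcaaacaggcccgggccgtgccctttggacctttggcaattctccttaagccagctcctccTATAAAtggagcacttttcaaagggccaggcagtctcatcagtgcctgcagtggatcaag
The printed Apoe window holds GAGGAA with its first base at position -250, the Apoc4 window AGGTCA at -25, and the Apob window TATAAA at -60 and GAGGAA at -238, counted from the RefSeq start, which for Apoc4 and Apob lies a little inside the gene span of the GENCODE annotation. Windows before the other Apoe starts are not printed. Of these, chr7:19698399-19698648 holds GAGGAA at -132, and chr7:19698622-19698871 holds TATAAA at -96 and its reverse complement at -100. Of 32851 windows of this length over all genes, 12.4% hold TATAAA, 23.3% GAGGAA and 14% AGGTCA, so each match is common. The arrangement that LXR receptors are known to bind, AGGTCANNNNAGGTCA, was in 0.0152% of windows and in none of the 8 windows of the 6 genes with an entry (Apoe with 3 starts, Apob, Apoc2, Apoc4, Abca1 and Lrp1); no other spelling was searched.

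Apoc1 (chr7:19689481-19692660, minus strand), which codes for a small apolipoprotein that exchanges between particles, followed Apoe at a far lower level. At P0 the constitutive knockouts had 33, 11.4 and 14.6 CPM, against 48.9, 35.1, 52.3 and 43.1 CPM in controls. The highest knockout value, that of knockout 68, lay just under the lowest control, and the change was -1.55 ± 0.34 (edgeR adjusted p = 0.00405), or -2.16 without that library. At 2 weeks the knockouts had 24.8 and 28.9 CPM, against 4.07, 1.44, 2.38 and 0.894 CPM in controls, a change of 3.58 ± 0.45 (edgeR adjusted p = 0.000372). At 6 weeks the knockouts had 35.5, 15.1 and 18.8 CPM, against 0.5, 0, 0.195 and 0 CPM in controls. The change was 7.06 ± 0.74 (edgeR adjusted p = 0.000474), and 8.12 without the control that had 0.5 CPM. It rests on 13 control reads in all, so Apoc1 passed the low-count filter here through the knockouts, where it was high. Knockout 380, which had the most Apoe, had the least Apoc1 of its group.

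In the inducible model Apoc1 passed the test at 2 weeks and at none of the other 3 ages. At 2 weeks the knockouts had 9.66, 12.7, 10 and 4.17 CPM, against 2.5, 2.15, 5.27 and 3.35 CPM in controls. The lowest knockout lay inside the control range, and the change of 1.38 ± 0.32 (edgeR adjusted p = 0.0386) no longer passed without any 1 of 6 of the 8 libraries, with adjusted p up to 0.143, or with all 14 groups in the fit (0.224). Apoc1 did not pass at E16 (-0.31 ± 0.37), at P0 (-0.16 ± 0.52) or at 6 weeks (0.58 ± 0.45). The constitutive effect exceeded the inducible effect on Apoc1 by 2.19 ± 0.61 at 2 weeks (edgeR adjusted p = 0.0129, but 0.0622 without constitutive knockout 89) and by 6.49 ± 0.86 at 6 weeks (edgeR adjusted p = 0.000109).

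Reads of Apoc1 for every 1000 reads of Apoe show that the pair did not move in a fixed ratio. Constitutive knockouts had 9.64 ± 5.44 at P0 (n = 3), 1.77 ± 0.199 at 2 weeks (n = 2) and 1.05 ± 0.847 at 6 weeks (n = 3). Their controls had 4.93 ± 0.325 at P0, 1.34 ± 0.718 at 2 weeks and 0.39 ± 0.486 at 6 weeks (SD, n = 4 each). The ratio was lower at 6 weeks than at P0 in every knockout and every control, whichever way Apoe itself had gone.

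Apoc4 (chr7:19678083-19681479, minus strand), an apolipoprotein gene that is known chiefly from liver, was near its detection limit in every group but 2. Constitutive knockouts had 2 and 3.32 CPM of it at 2 weeks, against 0, 0, 0.0628 and 0.163 CPM in controls. At 6 weeks they had 3.53, 12.3 and 6.96 CPM, against 0, 0.0611, 0 and 0.0799 CPM in controls. Every knockout stood above every control at both ages, and knockout 380 was highest. The controls held 3 reads at each age, so the ratio of pooled counts was 59.7 at 2 weeks (95% exact interval 19.9 to 294, counting error only) and 225 at 6 weeks (76.5 to 1098). The edgeR test called both (adjusted p = 0.000667 at 2 weeks and 4.57e-05 at 6 weeks). In all other groups no library passed 0.36 CPM, and the 4 inducible 6-week control libraries had no read, which allows up to 0.0386 CPM over the group. Its exons share 119 bases (4.69%) with Gm44805, a gene at 0 counts in all 50 libraries.

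Apoc2 (chr7:19671579-19677941, minus strand), whose product activates lipoprotein lipase, was hardly detected. Its 12 reads were in constitutive knockouts (2 at P0, 1 at 2 weeks and 3 at 6 weeks), inducible knockouts at P0 (1) and E16 controls (5). A count of 0 allows up to 0.0361 CPM over the constitutive 6-week controls. With 79.5% of its exon bases shared with Gm44805, reads there could have been left uncounted, and no comparison was made.

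**Figure D3:**
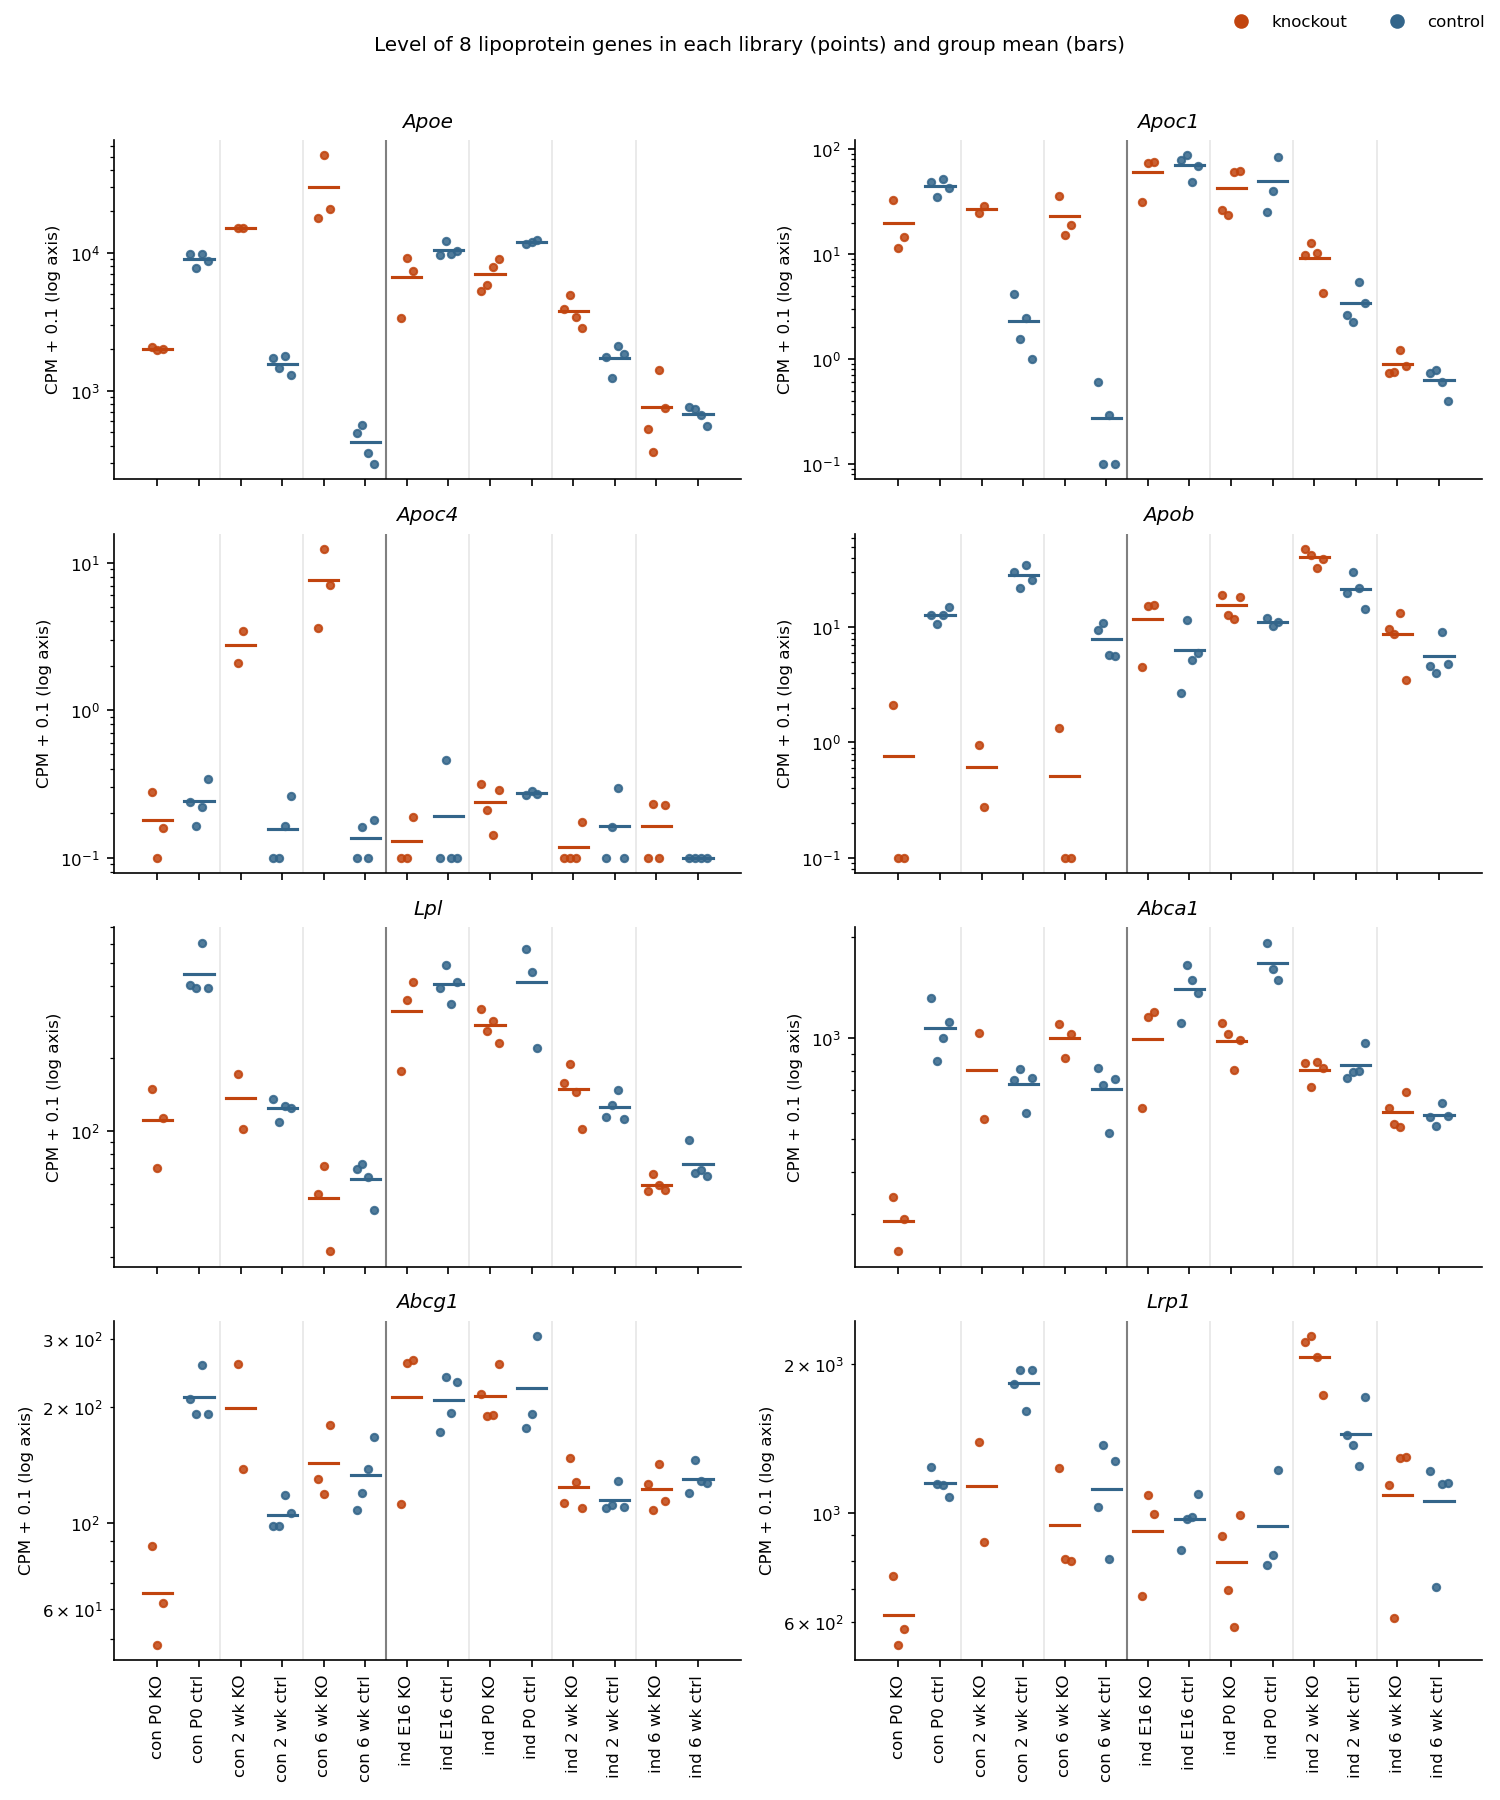
Level of 8 genes in each of the 50 libraries (points, CPM + 0.1 on a log axis) with the mean of each of the 14 groups as a bar; within each pair of groups the knockouts (orange) stand left of their controls (blue), constitutive groups left of the dark line and inducible groups right of it. Apoe, Apoc1 and Apoc4 are high in constitutive knockouts at 2 and 6 weeks where controls are low, and Apob is near 0 in all constitutive knockouts.

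Apob (ENSMUSG00000020609.14, chr12:7977648-8016835, plus strand), which codes for the structural protein of chylomicrons and very low density lipoproteins, was nearly lost in constitutive knockouts at every age. At P0 the knockouts had 2, 0 and 0 CPM, against 12.6, 10.6, 12.7 and 15 CPM in controls. At 2 weeks the knockouts had 0.858 and 0.177 CPM, against 29.9, 21.9, 35 and 25.9 CPM in controls. At 6 weeks the knockouts had 1.23, 0 and 0 CPM, against 9.38, 10.8, 5.68 and 5.59 CPM in controls. At each age all knockouts were below all controls, and all the reads left at P0 and at 6 weeks came from 1 animal (knockout 68 at P0 and the knockout with 1.23 CPM at 6 weeks). Library 68 was also 1 of those with Hdac1 above its controls. The other, 6-week knockout 380, had no read of Apob. A link between the reads left and Hdac1 was not tested.

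The fitted changes of Apob were -4.55 ± 0.90 at P0 (edgeR adjusted p = 0.00223), -5.85 ± 0.47 at 2 weeks (edgeR adjusted p = 2.35e-05) and -4.47 ± 1.04 at 6 weeks (edgeR adjusted p = 0.0284). The knockouts held 34, 19 and 15 reads in all at these ages, so Apob passed the low-count filter through the controls, where it was high. Without knockout 68 the P0 knockouts had no read, at least 134-fold lower than controls by a floor of 3 counts over the group. Without the knockout that had 1.23 CPM the same held at 6 weeks, at least 87.2-fold lower. The 6-week call was lost without any 1 of the 4 controls (adjusted p from 0.0586 to 0.0776) and without the filter on low counts (0.13), and the P0 call without that filter (0.051). At 2 weeks the change was -7.17 without knockout 80 and -5.13 without knockout 89, and it passed in both cases.

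In the inducible model Apob was higher in knockouts at 2 weeks, the reverse of the constitutive model. At that age the knockouts had 47.8, 42.5, 32.8 and 38.9 CPM, against 19.7, 29.9, 22 and 14.4 CPM in controls. No knockout was as low as any control, and the change was 0.85 ± 0.19 (edgeR adjusted p = 0.0315); without any 1 of 4 of the 8 libraries adjusted p was between 0.0974 and 0.111, and with all 14 groups in the fit it was 0.732. The other 3 ages gave changes of 0.85 ± 0.61 (E16), 0.48 ± 0.24 (P0) and 0.64 ± 0.37 (6 weeks) that did not pass. The constitutive effect minus the inducible effect on Apob was -5.00 ± 0.95 at P0 (edgeR adjusted p = 0.00151), -6.72 ± 0.50 at 2 weeks (edgeR adjusted p = 9.51e-08) and -5.11 ± 1.04 at 6 weeks (edgeR adjusted p = 0.0082). On the fold scale each of these differences moved by more than 1.5 times without 1 constitutive knockout (on the log2 scale to -11.38 without knockout 68, -8.04 without knockout 80 and -10.96 without the 6-week knockout with reads) and passed in each case. Of the hepatocyte markers Alb, Afp, Apoa1, Ttr, Fgb and Serpina1a, Serpina1a had no read in any of the 14 groups and Fgb in 13, and Ttr is shared with choroid plexus. The summed list was 59.4 to 100.3 CPM in constitutive knockouts, against 23.1 to 44.7 CPM in controls, at P0, 34.2 to 58 CPM, against 15.9 to 24.7 CPM, at 2 weeks, and 32.9 to 310.1 CPM, against 22.4 to 47.9 CPM, at 6 weeks. Its part in the level of Apob was not tested.

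Lpl (chr8:68880491-68907448, plus strand) codes for the lipase that splits particle triglycerides. At P0 constitutive knockouts had 149.9, 69.9 and 113 CPM, against 405, 392, 605 and 391 CPM in controls. All 3 were below all 4, a change of -2.37 ± 0.28 (edgeR adjusted p = 9.19e-05). Later the groups overlapped. The change was 0.12 ± 0.17 at 2 weeks (95% interval -0.21 to 0.44) and -0.32 ± 0.26 at 6 weeks (-0.82 to 0.19), and neither passed. In the inducible model Lpl passed at no age; at P0 its change was -0.61 ± 0.28, and -0.95 (edgeR adjusted p = 0.0121) without control 56, in which it had 220.2 CPM, against 572 and 455 CPM in the other P0 controls. That library also had a border macrophage marker sum of 3901 CPM, against 14466 and 14621 CPM in the other P0 controls.

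Abca1 (chr4:53030787-53159895, minus strand), the transporter that loads cholesterol onto lipid-poor apolipoproteins, had 337, 232 and 290.5 CPM in constitutive P0 knockouts, against 1316, 856, 1004 and 1117 CPM in controls. Without overlap between the groups, it fell by 2.27 ± 0.21 on the log2 scale (edgeR adjusted p = 2.78e-05). At 2 weeks its 2 knockouts, 1033 and 575 CPM, lay on either side of the controls (749, 812, 601 and 764 CPM). The change of 0.11 ± 0.18 did not pass, was -0.25 without knockout 80, and was 0.40 and called without knockout 89 (edgeR adjusted p = 0.04). At 6 weeks the knockouts had 1104, 872 and 1027 CPM, against 816, 726, 520.4 and 754 CPM in controls. Those groups were apart too, but the change of 0.46 ± 0.16 did not pass by edgeR (adjusted p = 0.0829), while DESeq2 called it (adjusted p = 0.0335). In inducible P0 knockouts Abca1 had 1111, 1030.4, 803 and 987 CPM, against 1926, 1613 and 1493 CPM in controls, and it fell by 0.77 ± 0.17 (edgeR adjusted p = 0.0148).

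Abcg1 (chr17:31057675-31117988, plus strand), which passes cholesterol on to larger particles, fell in constitutive P0 knockouts, with 87.1, 48.3 and 62.2 CPM, against 209.8, 191, 257 and 192 CPM in controls (log2 change -2.05 ± 0.22, edgeR adjusted p = 5.24e-05). At 2 weeks it had 259 and 138 CPM in knockouts, against 98.3, 98.1, 118 and 106 CPM in controls. Both knockouts were above all controls, a change of 0.88 ± 0.19 (edgeR adjusted p = 0.00412), and it was larger in knockout 80 (0.49 without it, 1.20 without knockout 89, called in both cases). At 6 weeks and in the inducible model Abcg1 was not called. Its changes there lay between -0.12 (inducible 6 weeks) and 0.05 (constitutive 6 weeks).

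Lrp1 (chr10:127538161-127621148, minus strand), the large endocytic receptor for ApoE-bearing particles, had 743, 540.3 and 583 CPM in constitutive P0 knockouts, against 1237, 1140.3, 1138 and 1073 CPM in controls. It fell by 1.24 ± 0.16 there (edgeR adjusted p = 0.000168). At 2 weeks it had 1392 and 874 CPM in constitutive knockouts, against 1820.2, 1941, 1609 and 1942 CPM in controls, and it fell by 0.71 ± 0.15 (edgeR adjusted p = 0.0047). In inducible 2-week knockouts it stood on the other side, with 2211, 2274, 2059.9 and 1732 CPM, against 1436, 1368, 1243 and 1716 CPM in controls. That rise of 0.45 ± 0.11 (edgeR adjusted p = 0.0349) left a narrow gap between the groups and was lost without any 1 of 6 of the 8 libraries (adjusted p from 0.0816 to 0.14) and with all 14 groups in the fit (0.518). The constitutive effect minus the inducible effect on Lrp1 at 2 weeks was -1.17 ± 0.19 (edgeR adjusted p = 0.000193).

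The knockout effects on Lpl, Abca1 and Abcg1 also differed between P0 and 2 weeks in the constitutive model. The 2-week effect minus the P0 effect was 2.42 ± 0.35 for Lpl, 2.32 ± 0.29 for Abca1 and 2.87 ± 0.31 for Abcg1, all past the threshold, with 5.06 ± 0.61 for Apoc1. In all 6 of 8 genes were called, all upward, where 30.8% of all genes were called, 21.7% upward. The sixth is Apoc4 (6.60 ± 1.45), which entered this test only through the 110 reads of the 2-week knockouts. It had 3 reads in the 2-week controls and, at P0, 4 in knockouts and 8 in controls. Its call rests on the 2-week knockout reads, and its size is imprecise. The P0 and 2-week comparisons hold different animals. For Apob (-1.37 ± 1.24) and Lrp1 (0.47 ± 0.22) this difference did not pass. At P0 the constitutive effect lay below the inducible effect for 6 of 7 genes (30.9% of all genes called, 16.9% downward); beside Apoe and Apob the differences were -1.73 ± 0.42 for Lpl, -1.46 ± 0.26 for Abca1, -1.96 ± 0.31 for Abcg1 and -0.97 ± 0.27 for Lrp1, the last lost without constitutive knockout 73, without scaling factors and with all 14 groups in the fit (-0.71, adjusted p = 0.103). At 2 weeks 4 of 8 differences between the models were positive and 2 negative, Apoc4 among the positive ones again through the constitutive knockouts alone (31.2% of all genes called, 16.6% up and 14.7% down), and at 6 weeks 2 were positive and 1 negative (4.95%, 2.54% up and 2.41% down). Between E16 and P0 no inducible effect differed by edgeR (0% of all genes, 983 at an unadjusted p below 0.05, and 2 by DESeq2), and between P0 and 2 weeks those of Apoe and Abca1 did (0.72 ± 0.18 for Abca1; 4.38% of all genes, 2.67% upward).

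In the control libraries Apoe, Apoc1 and Lpl were highest around birth. From P0 to 2 weeks Apoe changed by -2.24 ± 0.14 in constitutive and by -2.57 ± 0.16 in inducible controls on the log2 scale, Apoc1 by -4.02 ± 0.34 and by -3.67 ± 0.44, and Lpl by -1.57 ± 0.15 and by -1.52 ± 0.29. Over the same weeks Apob rose by 1.44 ± 0.18 and by 1.17 ± 0.23 (the second not called with all 14 groups in the fit, adjusted p = 0.108), and Lrp1 rose by 0.96 ± 0.10 and by 0.83 ± 0.16. In all, 4 genes fell and 2 rose in constitutive controls (63.3% of all genes changed, 36.6% down and 26.7% up), and 5 fell and 2 rose in inducible controls (54.7%, with 32.7% down and 21.9% up). From 2 to 6 weeks 5 genes fell in constitutive controls (17.7% of all genes changed, 8.93% downward) and 6 in inducible controls (17.1%, 8.98% downward), Apob among them (-1.90 ± 0.23 and -2.04 ± 0.27), and none rose. From E16 to P0 none of 7 was called in inducible controls (0.058% of all genes, with 1875 at an unadjusted p below 0.05, 412 called by DESeq2 and 7 by limma voom). Marker sums also differed between control ages. Border macrophage markers gave 2746 to 4030 CPM at P0, against 584 to 806 CPM at 2 weeks, in constitutive controls. In inducible controls they gave 3901 to 14621 CPM, against 608 to 761 CPM. Neuron markers were also lower at 2 weeks, and homeostatic markers higher, in both models. The part of these markers in the control courses was not tested.

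Other cell types' markers moved with the constitutive knockout, and the part of these in the results was not tested. At P0 all 8 neutrophil markers were detected and summed to 6743 to 9634 CPM in knockouts, against 546 to 1377 CPM in controls. The 10 astrocyte markers, of the main ApoE-making cell of brain, summed to 1303 to 1418 CPM in P0 knockouts, against 394 to 717 CPM in controls, and the 8 neuron markers to 2907 to 3559 CPM, against 817 to 1767 CPM. The 6 monocyte markers summed to 662 to 1145 CPM in P0 knockouts, against 107 to 199.7 CPM in controls, and the border macrophage sums overlapped (2286 to 3616 CPM in knockouts, 2746 to 4029.7 CPM in controls). At 2 weeks the astrocyte markers were lower in knockouts, at 18.7 to 31.2 CPM, against 211 to 252 CPM in controls. Their part in the level of Apoe was not tested at either age. Markers of blood-derived and border cells were higher at 2 weeks. The 8 neutrophil markers summed to 17101 and 48794 CPM in the 2 knockouts, against 105 to 782 CPM in controls, the 6 monocyte markers to 1501 and 3508 CPM, against 18.5 to 67.5 CPM, and the 8 border macrophage markers to 3047 and 3444 CPM, against 584 to 806 CPM. All of these markers were detected in both groups. The knockout with 48794 CPM of neutrophil markers (89) had 15146 CPM of Apoe, and the one with 17101 CPM (80) had 15258 CPM. These are 2 libraries only, and the part of neutrophil RNA in the level of Apoe was not tested.

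At 6 weeks the border macrophage markers summed to 1809 to 2541 CPM in constitutive knockouts, against 522 to 912 CPM in controls. Neutrophil markers gave 2123 to 4748 CPM in knockouts and 392 to 665 CPM in controls, and monocyte markers 193 to 733 CPM in knockouts and 49.7 to 112 CPM in controls. The astrocyte sum was again lower in knockouts, at 110.0 to 213 CPM, against 339 to 534 CPM in controls. Knockout 380, with the highest Apoe, had 4748 CPM of neutrophil markers and 343 CPM of the 5 choroid plexus markers, against 30.5 and 88.1 CPM of choroid plexus markers in the other knockouts. In the inducible 2-week knockouts, where Apoe rose, the border macrophage sum was 803 to 1008 CPM, against 608 to 761 CPM in controls, and the homeostatic sum 52203 to 61583 CPM, against 60896 to 64463 CPM.

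The wider lipid pathway was read from 5 lists of 55 genes in all, chosen by role; every gene named as risen or fallen had an edgeR adjusted p below 0.05, and changes are log2 ± SE. Among 13 uptake receptors 7 of 11 tested rose and 2 fell in constitutive 2-week knockouts, with a median change of 1.36, where 24.4% of all genes rose, 17.8% fell and the median over all genes was 0.00. Msr1, a scavenger receptor for modified lipoproteins, had 265 ± 65.1 CPM in these knockouts (SD, n = 2), against 2.3 ± 0.93 CPM in controls (n = 4), a rise of 6.89 ± 0.35. Cd36, another such receptor, had 191 ± 8.72 CPM in knockouts, against 1.47 ± 0.985 CPM in controls, a rise of 7.02 ± 0.40. Olr1, also a scavenger receptor gene, rose by 4.52 ± 0.47 and Lrp8, a receptor for ApoE, by 3.21 ± 0.40. Trem2, a microglial lipid and ApoE receptor, and Sort1, a sorting receptor, fell; these 2 names, and those of Msr1 and Cd36 at P0, were chosen after their values were seen. At 6 weeks Msr1 (4.77 ± 0.22), Cd36 (3.26 ± 0.41) and Sorl1 (1.14 ± 0.20) rose and Sort1 fell (-1.22 ± 0.12), out of 11 tested with a median change of 0.42, where 6.76% of all genes rose and 5.24% fell. At P0 5 of 13 rose and 5 fell, where 41.6% of all genes were called, 20.2% downward, Msr1 and Cd36 among those that fell, and Trem2 gave 40.3 ± 44.5 CPM in knockouts (n = 3), against 687 ± 114 CPM in controls (n = 4), a change of -4.44 ± 0.75.

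Among the lipases and remodelling proteins, Pltp, which moves phospholipid between particles, had 29.6 ± 11.4 CPM in constitutive 2-week knockouts, against 0.544 ± 0.184 CPM in controls, and 26 ± 4.26 CPM in 6-week knockouts, against 1.3 ± 0.975 CPM in controls. It rose by 5.76 ± 0.31 and by 4.32 ± 0.46. At 2 weeks Lipg, an endothelial lipase gene, had 33 reads in the knockouts and none in the controls, at least 17.9-fold higher by a floor of 3 counts over the control group. Mttp, which loads lipid onto ApoB, fell at 2 weeks by 2.04 ± 0.21, to 9.47 CPM in knockouts, against 38.3 CPM in controls. In this list 3 of 9 tested rose and 2 fell at 2 weeks (median change -0.02), where 24.4% of all genes rose and 17.8% fell. Lipg is among those that rose, and it passed the low-count filter through the knockouts alone. At 6 weeks 1 of 7 rose (median -0.11), where 6.76% of all genes did, and at P0 1 of 9 rose and 3 fell (median -0.21), where 41.6% of all genes were called.

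Of the genes of intracellular sterol and lipid handling 8 of 12 fell and 1 rose in constitutive knockouts at P0, with a median change of -1.27, where 20.2% of all genes fell and the median over all genes was 0.04. No test of this list against other genes was made. Lipa, the lysosomal acid lipase, fell by 2.33 ± 0.14, and Npc1 and Npc2, which move cholesterol out of lysosomes, fell by 1.47 ± 0.12 and by 1.48 ± 0.16. At 2 weeks 7 of 12 rose and 2 fell (median 0.48), where 24.4% of all genes rose, and at 6 weeks 5 rose and 1 fell (median 0.44), where 6.76% rose. Plin2, a coat protein of lipid droplets, had 217 ± 14.8 CPM in 2-week knockouts, against 39.3 ± 4.39 CPM in controls, a rise of 2.47 ± 0.14, and rose by 1.03 ± 0.15 at 6 weeks. Ch25h, which makes 25-hydroxycholesterol, had 54 ± 0.941 CPM in 2-week knockouts, against 0.16 ± 0.184 CPM in controls. The edgeR test called this rise, which sets 2169 knockout reads against 9 control reads, so the gene passed the low-count filter through the knockouts and its fitted fold is not given. At 6 weeks, with 1375 knockout reads against 45 control reads, it rose by 5.71 ± 0.66.

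Among the LXR control and efflux genes 3 of 9 were called at 2 weeks, when 42.1% of all genes were: the receptor gene Nr1h3 rose (1.41 ± 0.38) and 2 fell, Mylip (-0.62 ± 0.14) and Rxrb (-0.63 ± 0.18), with a median change of 0.04. At 6 weeks, when 12% of all genes were called, none of 9 was (median -0.15). At P0, when 41.6% of all genes were called, 4 of 10 fell, among them Mylip, an LXR target (-2.50 ± 0.27), and 2 rose. Among 8 genes listed as other apolipoproteins, a list that also holds the receptor gene Apobr, 5 were tested at each of these ages. At P0 Apod (1.19 ± 0.17) and Clu (1.24 ± 0.19), both also made by astrocytes, rose and Apool fell. Of the 5, only Apobr rose at 2 weeks (1.10 ± 0.29), and none was called at 6 weeks. In the inducible model the 5 lists held 4 calls, all at P0, when 10.4% of all genes were called. Of 13 uptake receptors tested Trem2 fell (-1.68 ± 0.23), and of 9 lipases and remodelling genes Lmf2 fell (-0.80 ± 0.20). Of 12 genes of intracellular sterol and lipid handling Lipa fell (-0.77 ± 0.14) and Fabp5 rose (1.04 ± 0.16). None of 6 genes listed as other apolipoproteins and none of 10 LXR control and efflux genes was called.

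**Figure D4:**
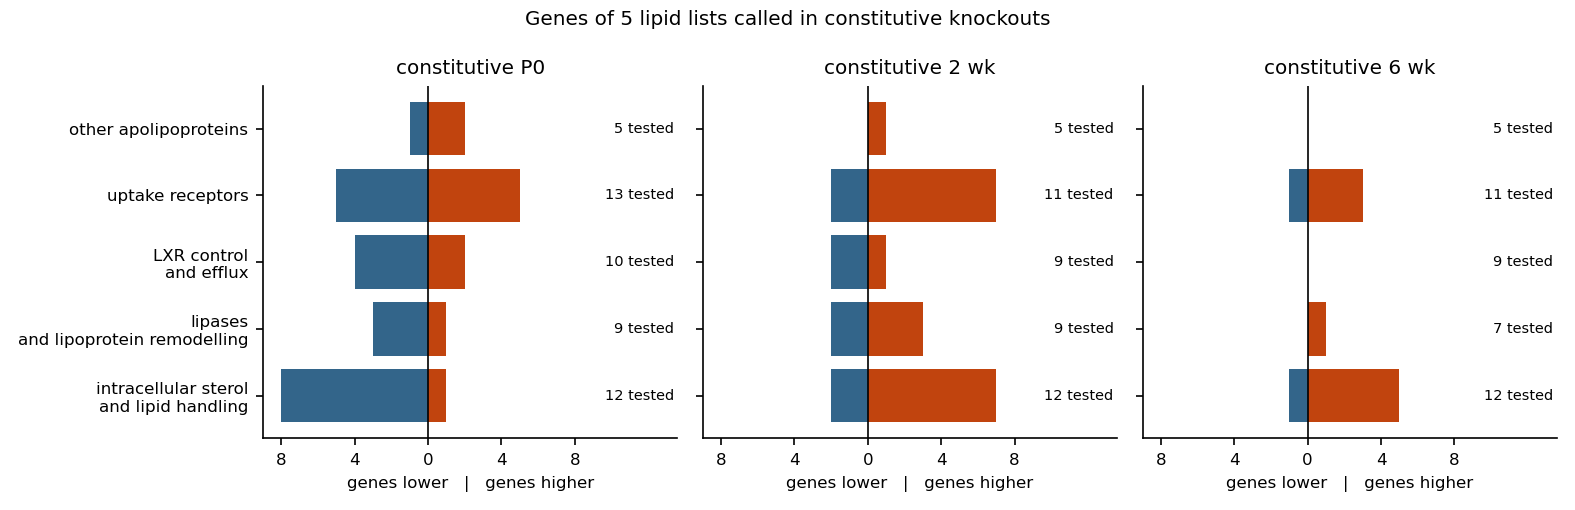
Number of genes called higher (orange, right of 0) or lower (blue, left of 0) in constitutive knockouts at P0, 2 weeks and 6 weeks in 5 lists of lipid genes, with the number tested at the right of each bar. Intracellular lipid genes are mostly called lower at P0, with 8 lower and 1 higher, and mostly higher at 2 weeks, with 7 higher and 2 lower.

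The genes whose group means most resembled those of Apoe over the 14 groups, by Pearson's r of log2(mean CPM + 1) among 12879 genes, were Ms4a14 (r = 0.912), Car9 (0.908), Slc44a1 (0.904), Siglec1 (0.901) and Ms4a7 (0.899). Ms4a7, a marker of border macrophages, had 244 CPM in constitutive 2-week knockouts and 552 CPM in 6-week knockouts, against 1.17 CPM in 2-week controls and 1.41 CPM in 6-week controls. Of the genes described here Apoc1 was the most alike (r = 0.88), Lpl gave 0.522 and Apob -0.302. Within the 7 control groups alone Lpl (0.994) and Apoc1 (0.989) ran close to Apoe, and within the 7 knockout groups Lpl did not (0.101). The points are means over the same 50 libraries, and groups of 1 model share their Cre line and treatment, so these values describe the groups and carry no test.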

How the data were processed

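RNA-seq of sorted mouse microglia was analysed from a table of gene counts and a table of CPM values. Per the labels, libraries were made with the SMARTer Ultra Low Input v4 and Nextera XT kits, which do not mark strand. Per the submitters' processing notes, the authors used CASAVA 1.8.2, STAR 2.5.2b, the GRCm38 build, featureCounts 1.5.1 and limma 3.28.21; which annotation release was counted is not given here. The deposited counts are whole numbers per gene and were not normalized by the authors. The deposited CPM values equal each count scaled to a library total of 1000000, and no per-length scaling was made by the authors; levels per kilobase were computed from the lengths in the counts table. 468 of 48526 genes had no symbol (0.058% of counts) and were kept. Another table, of limma voom values, was not used.

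Groups come from the labels. Each comparison was fitted with its own groups in edgeR 4.0.16 (filterByExpr, TMM scaling, robust quasi-likelihood test, Benjamini-Hochberg threshold 0.05), under R 4.3.3; differences between knockout effects were interaction terms over 4 groups. SE is the log2 change divided by the square root of F, and its 95% interval uses the normal quantile, which is narrow for so few libraries. Alternatives were no scaling factor, no filter, a fit without the robust option, DESeq2 1.42.0, limma voom 3.58.1, all 14 groups in 1 fit, and each library left out in turn. The statistics were tested on simulated data. Replicates are separate animals, and any pair in a group differed by far more than sampling noise (chi-square per gene 9.98 to 214), so none was merged. Likeness to Apoe was Pearson's r over group means of genes with at least 5 CPM in 1 group, and the 5 highest are named; of the pathway genes, up to 4 per list and comparison with the smallest p-values are named with their changes. Intervals and floors of 3 counts cover counting error only. The genes and lists were chosen with earlier results of these data known.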

Additional observations from a re-analysis of the deposited data

Results flagged for a closer look

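In 5 of 64 combinations of a gene and a group of 4 animals with enough counts 1 library lay far from the others of its group, and chance alone gives about 1 in 20. All 5 were controls: Apob had 8.97 CPM in inducible 6-week control 1, Lpl had 605 CPM in constitutive P0 control 71 and 91.9 CPM in inducible 6-week control 10, Abcg1 had 128 CPM in inducible 2-week control 3, and Lrp1 had 706 CPM in inducible 6-week control 11. Groups of fewer than 4 animals, all constitutive knockout groups and the E16 knockouts among them, were not screened.

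In 23 cases the knockout effect differed between ages or models by a tested interaction term, as log2 differences with edgeR adjusted p below the threshold. Between 2 weeks and P0 of the constitutive model the differences were 5.74 for Apoe, 5.06 for Apoc1, 6.60 for Apoc4, 2.42 for Lpl, 2.32 for Abca1 and 2.87 for Abcg1. Between 2 weeks and P0 of the inducible model they were 1.86 for Apoe and 0.72 for Abca1, the second lost without any 1 of 6 libraries (adjusted p from 0.0516 to 0.0583).

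The constitutive effect minus the inducible effect at P0 was -1.74 for Apoe, -5.00 for Apob, -1.73 for Lpl, -1.46 for Abca1, -1.96 for Abcg1 and -0.97 for Lrp1. At 2 weeks it was 2.22 for Apoe, 2.19 for Apoc1, 7.47 for Apoc4, -6.72 for Apob, 0.83 for Abcg1 and -1.17 for Lrp1. Both values for Apoc4 are imprecise, with SE of 1.45 between the ages and 1.82 between the models. It entered these tests only through the constitutive 2-week knockouts, and the other groups held 1 to 8 reads each. Its difference between the models was 5.95 and not called without inducible control 3, which held most of that group's few reads, and that for Abcg1 was 0.42 and not called without constitutive knockout 80. At 6 weeks it was 5.96 for Apoe, 6.49 for Apoc1 and -5.11 for Apob. In both models the effect on Apoe was negative at P0 and positive at 2 weeks, while the effect on Apob at 2 weeks had opposite signs in the 2 models.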

How the results depend on the processing

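Over the tests of the 9 genes, 0 of 70 called results changed sign under any alternative, while 14 lost a call under at least 1, 4 gained one and 12 uncalled ones changed sign. The counts of genes called moved by over 1.5 times in 4 comparisons: with all 14 groups in 1 fit they were 1 for inducible E16 (Abca1), 1 for inducible P0, 0 for inducible 2 weeks and 1 for the inducible 2-week minus P0 effect, and without 1 library they ran from 1 to 2, from 0 to 4 and from 1 to 3 in the last 3. Of the 5 genes most like Apoe, 0 were among the 5 from control groups only and 1 from knockout groups only. Sign changes without a replicate gave -0.25 to 0.40 (Abca1) and -0.19 to 0.37 (Lpl) at constitutive 2 weeks, -0.15 to 0.17 (Abcg1) at constitutive 6 weeks, -0.59 to 0.032 (Apoc1), -0.38 to 0.069 (Lrp1) and -0.31 to 0.30 (Abcg1) at E16, -0.48 to 0.40 (Apoc1) and -0.18 to 0.19 (Abcg1) at inducible P0, -0.044 to 0.10 (Abcg1) at inducible 2 weeks, and -0.065 to 0.047 (Abca1), -0.34 to 0.37 (Apoe) and -0.14 to 0.21 (Lrp1) at inducible 6 weeks. Others were 0.026 for Abcg1 at E16 without scaling, and at inducible 6 weeks -0.00086 (DESeq2) and -0.00010 (limma voom) for Abca1, -0.030 for Apoe and -0.010 for Lrp1 (limma voom). For these changes the cause was not tested. Among control ages, the rise of Apob from P0 to 2 weeks in inducible controls was lost with all 14 groups (adjusted p = 0.108), and the fall of Lrp1 from 2 to 6 weeks in inducible controls was lost without scaling (adjusted p = 0.064), with all 14 groups (0.121) and without 5 of the 8 libraries. Omitting the scaling factors moved the median of all genes by 0.36 in constitutive P0 knockouts (51.4% of calls higher with scaling, 75.9% without), by 0.12 at E16, by -0.29 and -0.22 from P0 to 2 weeks in constitutive and inducible controls (42.1% against 25.6% and 40.1% against 26% higher), by -0.29 for the constitutive 2-week minus P0 effect (70.5% against 55%), by 0.34 for the difference of the models at P0 (45.3% against 71.2%) and by -0.17 for the inducible P0 minus E16 effect; higher shares also moved in inducible 2-week knockouts (49.5% against 67.8%) and from 2 to 6 weeks in inducible controls (47.5% against 63.2%). No paired analysis was possible because the animal numbers in the labels name different animals in the groups compared, which share fewer than 2 numbers. With 2 constitutive 2-week knockouts, leaving 1 out leaves a lone library that is taken to vary like the controls. Low counts limit Apoc1 in 6-week controls, Apoc4, Apoc2 and Apob in constitutive knockouts.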
